A study of Drosophila melanogaster with 3 samples.

Results

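The genes described here encode proteins of the mitochondrial ribosome and were taken by name alone, as all rows whose symbol begins with mRpL or mRpS. This gave 72 of 15682 listed genes, 46 named for the large subunit and 26 for the small subunit. They were read in 3 RNA-seq libraries of Drosophila melanogaster, all of 1 group: skeletal muscle of male flies, 10 days old, of the genotype Pitx RNAi, in which RNAi against Ptx1 was run in muscle. The titles of the libraries name MhcGal4, a driver built on the promoter of the muscle myosin heavy chain gene, and a line called PtxRNAi2. PITX proteins are homeodomain transcription factors, and Ptx1 is the fly gene of this family. The series sets these flies against control libraries of another series, which were not analysed here. Without them nothing below can be read as an effect of the RNAi, and whether the levels carry one was not tested. All comparisons are between genes within the 3 libraries or between the libraries themselves, and nothing in the labels says that the libraries came from separate pools of flies, so their spread may be technical.

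Mitochondria keep their own ribosome, which translates the few messages of the mitochondrial genome into core subunits of the respiratory chain and the ATP synthase. Its RNA comes from the mitochondrial genome, but its proteins are encoded in the nucleus, made in the cytoplasm and imported. Muscle mitochondria depend on it for oxidative energy supply. Part of the proteins descend from those of bacterial ribosomes and keep the bacterial numbers, while the rest have no bacterial counterpart and carry higher numbers.

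The libraries held between 35988267 and 52675322 gene counts. Levels are given as CPM, the counts of a gene divided by all gene counts of its library and scaled to a common round total. CPM is not corrected for transcript length, so an order of genes by CPM is an order of sequenced fragments and not of transcripts. Muscle genes were abundant, with all 10 muscle markers above 1 CPM in every library and a summed level of 14654, 18452 and 16539 CPM in libraries 1, 2 and 3. In these bulk samples fewer cells of a type and less RNA per cell cannot be told apart. Other tissues left RNA in the libraries too. The 5 gut markers summed to between 8337 and 10336 CPM, the 5 fat body markers to between 6324 and 7000 CPM, the 5 neuron markers to between 608 and 931 CPM and the 5 blood cell markers to between 272 and 342 CPM. The 5 testis and accessory gland markers together stayed at or below 0.342 CPM, with Acp70A at 0 in every library. The target Ptx1 was counted at 15.7, 12.3 and 12.2 CPM in libraries 1, 2 and 3, which cannot check the labels without a control.

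Of the 72 genes, 71 reached 1 CPM in every library, and the same 71 reached 2 CPM. The exception was mRpL53, with no count in any library. A count of 0, taken as up to 3 counts, allows a level of at most 0.0834, 0.0591 and 0.0570 CPM in libraries 1, 2 and 3, and this limit covers counting error only. In the Release 6 annotation of RefSeq, mRpL53 overlaps AGO1 and CG33155. Of the listed counts, 2.74%, 2.35% and 2.44% in libraries 1, 2 and 3 stand as ambiguous, apart from any gene. Reads of mRpL53 set aside in this way would not be in its count. Which reads of an overlap were set aside depends on the use of strand, which is not known from the labels. Together the 72 genes held 0.319%, 0.285% and 0.306% of gene counts in libraries 1, 2 and 3, or 3034 ± 169 CPM (SD, n = 3). The median member averaged 30.6 CPM, beside 29.6 CPM for the 9579 genes that reached 1 CPM in every library.

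The detected members averaged between 6.12 CPM (mRpL34) and 88.8 CPM (mRpL28), apart from 3 genes with small-subunit names that stood above this range. The highest was mRpS5, whose protein corresponds to a bacterial small-subunit protein that lines the entry of the messenger RNA channel. It stood at 556, 638 and 666 CPM in libraries 1, 2 and 3, with a mean of 620 ± 57.1 CPM (SD, n = 3), which was 20.5 ± 2.69% of the summed CPM of all members. In rank of CPM it lay at the 96.8th percentile of detected genes.

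Next came mRpS7, the counterpart of a bacterial protein that organises the head of the small subunit, at 206, 178 and 199 CPM. The third was mRpS30, at 148, 141 and 145 CPM; its mammalian counterpart, in spite of the name, sits in the large subunit. No other member averaged above 100.0 CPM. mRpL28 had the highest CPM of the genes named for the large subunit, with 96.9, 82.8 and 86.8 CPM in libraries 1, 2 and 3. It was followed by mRpS9, the counterpart of a bacterial protein whose tail reaches the tRNA in the P site, at 88.8, 75.1 and 80.4 CPM, and by mRpL16, at 71.4, 62.5 and 65.9 CPM.

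The lowest member with counts was mRpL34, with 7.31, 5.69 and 5.37 CPM in libraries 1, 2 and 3. The next was mRpL11, the counterpart of a bacterial protein at the base of the stalk that receives translation factors, at 11.6, 8.64 and 10.0 CPM. mRpL32 had 10.4, 9.86 and 10.1 CPM, mRpL39 had 11.6, 10.6 and 9.74 CPM and mRpL55 had 12.1, 10.2 and 10.4 CPM. The values of mRpL11, mRpL32, mRpL39 and mRpL55 overlapped each other over the libraries, so their order is not resolved, whereas all 3 values of mRpL34 lay below all of theirs. mRpL12, the protein of the stalk itself, stood mid-range at 34.0, 28.9 and 28.9 CPM.

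Members with known places in the ribosome, picked for their roles and not by the rule for named genes, lay between these ends. mRpL2 and mRpL3, whose bacterial counterparts brace the centre where peptide bonds form, stood at 53.2, 44.5 and 46.3 CPM and at 47.5, 43.2 and 46.9 CPM in libraries 1, 2 and 3. mRpL23 and mRpL24, counterparts of bacterial proteins around the exit of the peptide tunnel, had 45.1, 39.8 and 42.7 CPM and 64.4, 57.3 and 60.2 CPM. Next to this exit in mammals lies the counterpart of mRpL45, which helps to hold the ribosome at the inner membrane, and mRpL45 had 73.0, 62.5 and 61.9 CPM. mRpL10, whose bacterial counterpart anchors the stalk, had 41.9, 33.8 and 38.7 CPM, above mRpL12 in every library. Of small-subunit genes, mRpS11, with a bacterial counterpart on the platform, had 35.8, 30.5 and 34.0 CPM. mRpS29, whose mammalian counterpart is the GTP-binding protein DAP3, had 33.0, 24.5 and 28.5 CPM, and mRpS22, which has no bacterial counterpart, had 64.5, 54.8 and 58.1 CPM. In all 9 of these genes library 1 was highest, and library 2 was lowest in all but mRpL45, where library 3 was.

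The mean levels of members with bacterial numbers and of those with higher numbers overlapped widely in both subunits. For the large subunit, the 28 detected genes with bacterial numbers averaged between 6.12 CPM (mRpL34) and 88.8 CPM (mRpL28), and the 17 with higher numbers between 10.6 CPM (mRpL39) and 65.8 CPM (mRpL45). Of genes named for the small subunit, the 14 with bacterial numbers averaged between 11.3 CPM (mRpS18C) and 620 CPM (mRpS5). The 12 with higher numbers averaged between 14.9 CPM (mRpS28) and 145 CPM (mRpS30).

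**Figure D1:**
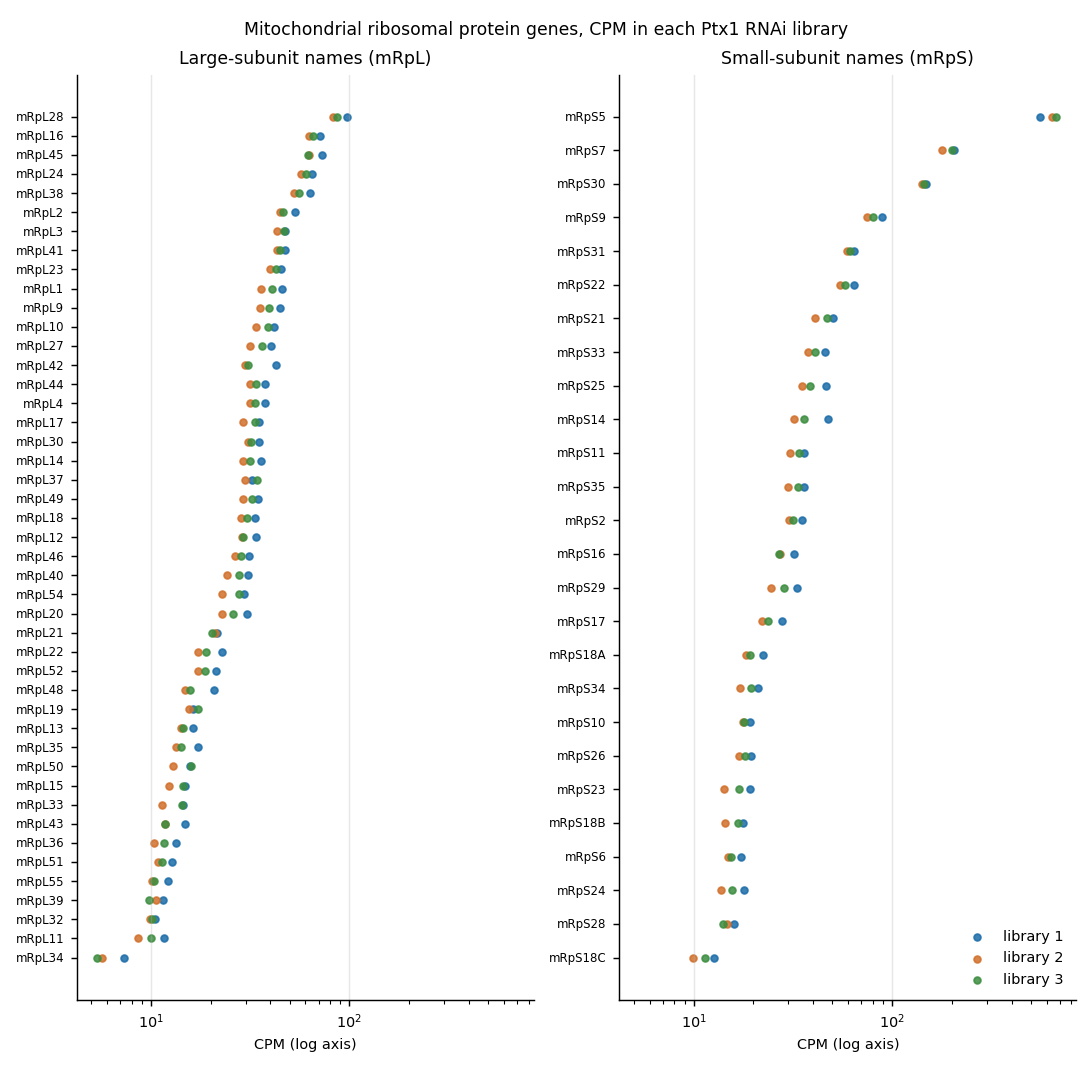
CPM of the 71 detected members in each library, on a log axis, for genes named for the large subunit (left) and the small subunit (right), sorted by mean. Each point is 1 library. mRpS5, mRpS7 and mRpS30 lie above 100.0 CPM, and in nearly every row library 1 is the point farthest right, with mRpS5 as the clearest exception.

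Among close relatives, 3 genes carry the same number and encode proteins related to bacterial S18. mRpS18A stood at 22.3, 18.3 and 19.3 CPM in libraries 1, 2 and 3, mRpS18B at 17.8, 14.5 and 16.8 CPM and mRpS18C at 12.6, 9.86 and 11.4 CPM. In mammals each of these has a place of its own in the ribosome, and the counterpart of mRpS18A lies in the large subunit. The ranges of mRpS18A and mRpS18B over the libraries did not overlap, nor did those of mRpS18B and mRpS18C, though without lengths this does not order their transcripts.

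The members differed between the libraries together. Of the 71 detected members, 70 stood higher in library 1 than in library 2, whereas 52.8% of the 9579 detected genes did. The pair of libraries 1 and 2 is described because the members differed most between them, so this was chosen after the values were seen. The median difference was 0.25 on the log2(CPM + 0.5) scale, with quartiles of 0.21 and 0.33, beside a median of 0.02 and quartiles of −0.19 and 0.19 over all detected genes. Library 1 held the highest value of 67 members (94.4%, and 43.7% of all detected genes) and library 2 the lowest of 63, beside 4321 of the 9579 detected genes. For 60 members (84.5%, and 36.01% of all detected genes) library 1 was highest and library 2 lowest.

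**Figure D2:**
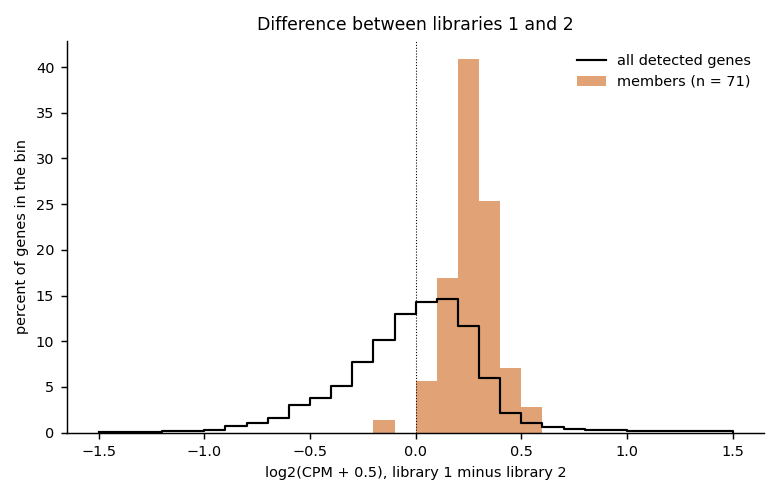
Difference of log2(CPM + 0.5) between library 1 and library 2, in bins 0.1 wide, as a percentage of the 71 detected members (filled) and of all 9579 detected genes (line); 90 genes, none of them members, lie outside the axis. Of the members, 64 lie between 0.1 and 0.5, and 1, mRpS5, lies below 0.

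Against library 3 the differences were smaller. In library 1, 67 members stood higher than in library 3, with a median difference of 0.15, and 48.0% of all detected genes did, with a median of −0.01. In library 2, 7 members stood higher than in library 3, with a median difference of −0.11, beside 44.5% of all detected genes and a median of −0.02. As deviations from each gene's mean, the members' medians were 0.13, −0.12 and −0.01 in libraries 1, 2 and 3, and those of all detected genes were 0.00, −0.01 and 0.01.

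No single member was set apart by the test. An edgeR goodness-of-fit test, which asks whether a gene spreads more between the libraries than genes of its abundance do, called 0 of 71 members at an adjusted p below 0.05, where it called 2.05% of the 10522 genes tested. At an unadjusted p below 0.05 it again marked 0 of 71 members, beside 5.41% of all genes tested. The lowest member p was that of mRpS14, with an unadjusted p of 0.0972 (edgeR adjusted p = 0.99996). The members' median coefficient of variation over the libraries was 9.55%, beside 7.86% over all detected genes. The test reads genes singly, and whether a set of genes differs as a whole was not tested.

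mRpS5 was the member that went the other way. It was lowest in library 1, at 20020 counts, or 556 CPM with an exact 95% interval of 549 to 564 CPM, and highest in library 3, at 35099 counts, or 666 CPM with an interval of 659 to 673 CPM. These Clopper-Pearson intervals cover counting error only, and the edgeR test did not call mRpS5 (unadjusted p = 0.595, adjusted p = 0.99996). It overlaps no other gene in Release 6. Because mRpS5 held 17.4% of the members' CPM in library 1 and 22.3% in library 2, the sum over members differed with and without it. The sum of all members was 3190, 2854 and 3058 CPM in libraries 1, 2 and 3, and the sum without mRpS5 was 2634, 2216 and 2391 CPM. The ratio of summed CPM of large- to small-subunit names was 0.876, 0.776 and 0.782 in the same order with mRpS5, and 1.30, 1.29 and 1.28 without it. This ratio goes by name only. It counts mRpS30 and mRpS18A as small, although their mammalian counterparts lie in the large subunit, and moving them was not tried. mRpS5 was left out after its values were seen.

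The members with the widest range were mRpS14, a small-subunit protein with a bacterial counterpart, at 47.6, 32.0 and 36.03 CPM in libraries 1, 2 and 3, mRpL42, at 42.5, 29.9 and 30.9 CPM, and mRpL48, at 20.8, 14.8 and 15.8 CPM. The fourth was mRpS23, at 19.2, 14.2 and 17.0 CPM. In each of these library 1 stood highest and library 2 lowest, and the ranges were 0.57, 0.50, 0.48 and 0.42 in log2(CPM + 0.5) for mRpS14, mRpL42, mRpL48 and mRpS23. The narrowest ranges belonged to mRpL21, at 21.5, 21.1 and 20.4 CPM, to mRpL32 and mRpS30, given above, and to mRpS10, at 19.1, 17.7 and 18.0 CPM. In Release 6, mRpS14, mRpL42, mRpL48 and mRpS23 each overlap another gene, as mRpL32 does, while mRpL21, mRpS30 and mRpS10 overlap none. Besides mRpS5, the members that were not highest in library 1 were mRpL19, at 16.3, 15.5 and 17.3 CPM, mRpL37, at 32.4, 29.6 and 34.3 CPM, and mRpL50, at 15.78, 12.9 and 15.83 CPM. In all 3, library 3 held the highest value and library 2 the lowest.

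**Figure D3:**
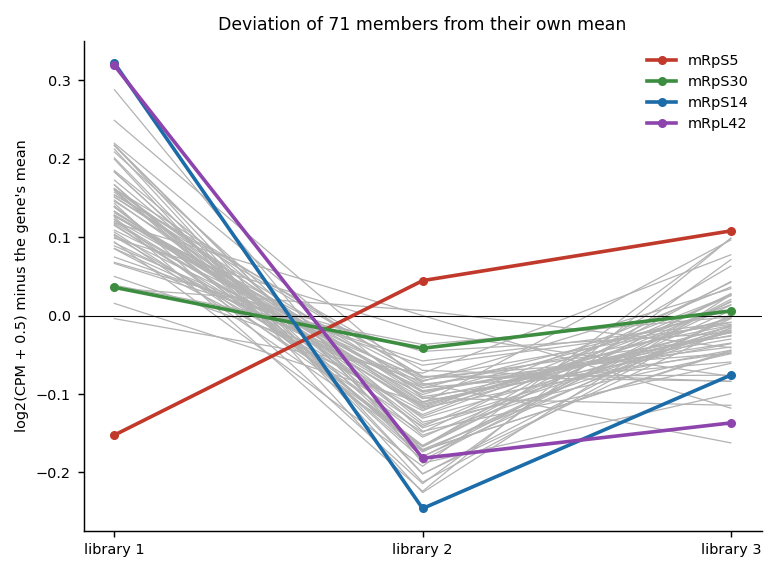
Each of the 71 detected members as its log2(CPM + 0.5) in a library minus its mean over the libraries; a line joins the values of 1 gene, and the libraries have no order. Grey lines are the members not named in the legend. mRpS14 and mRpL42 have the widest range, mRpS30 is among the narrowest, and mRpS5 is lowest where most others are highest.

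The shared difference was of similar size in each part of the ribosome. Between libraries 1 and 2 the median difference was 0.25 for 45 detected large-subunit names and 0.25 for 26 small-subunit names. It was 0.25 for the 42 members numbered up to L36 or S21, the range of bacterial numbers, and 0.26 for the 29 detected members with higher numbers. Members that overlap no other gene in Release 6 had a median of 0.24, with 29 of 30 higher in library 1, and the 41 detected members that overlap another gene had a median of 0.26, with all 41 higher. The last comparison bears on counting, because the counts of overlapping genes are uncertain where the use of strand in counting is not given. Medians and counts of these subsets are descriptions, and no difference between the subsets was tested.

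Mitochondrial ribosomal proteins that stand in the files under other names differed in the same direction. These are tko, the fly S12 protein at the decoding site, at 13.4, 12.4 and 13.95 CPM in libraries 1, 2 and 3, bonsai, the S15 protein, at 37.8, 30.3 and 34.8 CPM, and Rlc1, which Release 6 names mRpL47, at 35.3, 28.8 and 32.5 CPM. All 3 stood higher in library 1 than in library 2, and tko was highest in library 3.

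Other genes of gene expression in mitochondria differed among themselves. Of 8 detected translation factors, 6 stood higher in library 1 than in library 2, with a median difference of 0.15 on the log2 scale. EfTuM, the elongation factor that delivers aminoacyl-tRNA to the ribosome, had 241, 204 and 211 CPM in libraries 1, 2 and 3, and ico, which Release 6 names as the elongation factor mEFG1, had 31.7, 32.9 and 31.8 CPM. Of 19 detected genes on the list of mitochondrial aminoacyl-tRNA synthetases and amidotransferases, 10 stood higher in library 1 than in library 2. Their median was 0.01, with quartiles of −0.07 and 0.12. Their highest member, Aats-phe, had 168, 158 and 161 CPM. Of 11 detected genes of mitochondrial DNA and RNA maintenance, 10 stood higher in library 1, with a median of 0.17. Among them the RNA polymerase gene mtRNApol had 96.3, 99.8 and 99.2 CPM, the DNA packaging protein gene TFAM had 99.0, 90.5 and 91.1 CPM and bsf, an RNA-binding protein gene, had 133, 132 and 131 CPM. The edgeR test called 0 of the 8, 0 of the 19 and 0 of the 11 genes at an adjusted p below 0.05, beside 2.05% of all genes tested.

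Most genes of 2 larger families also stood higher in library 1 than in library 2. The first list holds nuclear-encoded genes of oxidative phosphorylation, the complexes that the mitochondrial ribosome helps to build. Of its 64 detected genes, 62 stood higher in library 1 than in library 2. The median difference over the 64 was 0.24, with quartiles of 0.19 and 0.28. All 86 detected genes on the list of cytoplasmic ribosomal proteins stood higher in library 1, with a median of 0.31 and quartiles of 0.28 and 0.37. The oxidative phosphorylation list summed to 45285, 39473 and 41389 CPM in libraries 1, 2 and 3. Its entries ATPsynbeta, COX7CL and UQCR-14 matched no single row and were left out. The list need not hold every other gene of these complexes, so its counts and sum stand for the listed genes only. The list of cytoplasmic ribosomal proteins summed to 77622, 62368 and 67252 CPM in the same order. The edgeR test called none of either list (0 of 68 and 0 of 87 tested). The second list holds genes with symbols in RpL and RpS, sta and, by an error of the list, qm, which is not a ribosomal protein gene. By symbol alone it also takes in RpL24-like, RpL7-like and RpLP0-like, so not every gene on it need encode a ribosomal protein. The 13 protein-coding genes of the mitochondrial genome itself, whose messages this ribosome translates, are listed at 0 in every library, so they could not be set beside it. A 0 throughout does not show that these messages were absent. Like mRpL53, the genes waw, mtTFB1, DNApol-gamma35, CG33714 and CG33649 on the lists above stood at 0 in every library too.

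**Figure D4:**
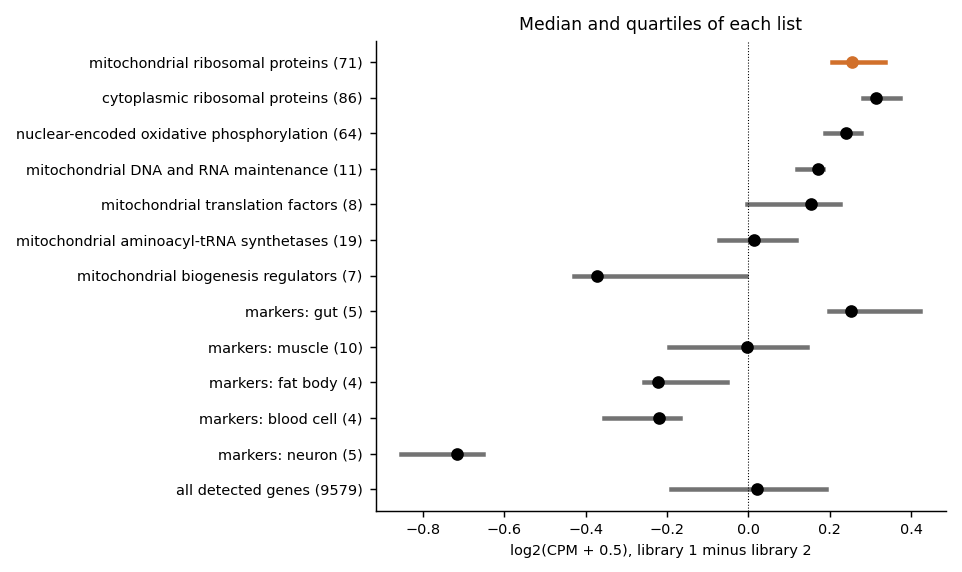
Median (point) and quartiles (bar) of log2(CPM + 0.5) in library 1 minus library 2 for each gene list, with the number of detected genes in parentheses. Mitochondrial ribosomal proteins stand at 0.25, beside 0.31 for cytoplasmic ribosomal proteins, 0.24 for oxidative phosphorylation, 0.01 for mitochondrial aminoacyl-tRNA synthetases, −0.72 for neuron markers and 0.02 for all detected genes.

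Of 7 regulators linked to mitochondrial biogenesis, 1 was higher in library 1 than in library 2, and the median difference was −0.37. The 1 was TFAM, which also stands on the maintenance list. crc, the fly relative of ATF4, was nearly level at 1118, 1119 and 1151 CPM in libraries 1, 2 and 3, and the transcription factor gene foxo had 148, 198 and 178 CPM. Spargel, the fly member of the PGC-1 family of coactivators, had 12.004, 15.7 and 14.1 CPM in libraries 1, 2 and 3. The Myc gene, listed as dm, had 41.5, 72.4 and 57.4 CPM. ewg, the fly relative of nuclear respiratory factor 1, had 49.2, 66.9 and 60.2 CPM, and Ets97D, which Release 6 lists under Delg, the relative of a GA-binding protein subunit, had 10.8, 10.9 and 10.9 CPM. The edgeR test called 0 of these 7 genes at an adjusted p below 0.05, beside 2.05% of all genes tested.

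Markers of several tissues differed along the same split of the libraries. The neuron markers summed to 608, 931 and 812 CPM in libraries 1, 2 and 3, and all 5 were lowest in library 1, with a median difference between libraries 1 and 2 of −0.72. The gut markers summed to 10336, 8337 and 8685 CPM, with 4 of 5 higher in library 1 than in library 2. The 4 detected blood cell markers were all lower in library 1 than in library 2. Of 4 detected fat body markers 3 were lower in library 1 than in library 2, with a median difference of −0.22. Lsd-1 was higher, at 693, 538 and 608 CPM in libraries 1, 2 and 3. Yp1, 1 of the 3, lay near the detection threshold, at 1.22, 1.57 and 1.42 CPM. The summed level of the list was 6324, 6985 and 7000 CPM, of which Rfabg alone held 5231, 5970 and 5951 CPM. Of the 10 muscle markers, 5 were higher and 5 lower in library 1 than in library 2, and the myosin heavy chain gene Mhc had 4200, 4901 and 4376 CPM. The genes of the very large proteins bt and sls had 2544, 4452 and 3566 CPM and 2036, 3594 and 2798 CPM. The edgeR test called 1 of 5 gut markers (Jon65Aiv) and 1 of 5 neuron markers (Syx1A) at an adjusted p below 0.05. It called 0 of 10 muscle, 0 of 4 fat body and 0 of 5 blood cell markers, beside 2.05% of all genes tested. With lists this short, a count of 0 or 1 does not set a list apart. Library 1 was also the shallowest, and its share of reads that lay in no annotated feature was 9.80%, against 11.9% and 11.6% in libraries 2 and 3. The part of tissue content, depth and RNA quality in the members' difference was not tested.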

How the data were processed

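Whole-number counts per gene were deposited by the authors, without normalization, as the files themselves show; CASAVA 1.7, BWA, STAR and HTSeq are named, per the submitters' processing notes, without roles. The genome build named there, mm9, is a mouse build, so the fly build and the use of strand in counting are not given in the sources used here. Per the labels' protocols, libraries were stranded TruSeq mRNA, read in pairs of 100 bases. The 5 summary rows were left out, leaving 74.9% to 78.0% of listed counts. The 6 control columns belong to samples outside those described and were not used.

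CPM used all gene counts; genes at 1 CPM in every library were called detected; log2 values had a pseudocount of 0.5. edgeR 4.0.16 fitted an intercept with TMM, filterByExpr and trended dispersion over all genes, and tested goodness of fit from the deviance by chi-square, with threshold 0.05 and Benjamini-Hochberg adjustment; it was tested on simulated data. RefSeq names and overlaps came from Release 6 plus ISO1 MT; 7 list entries matched no single row. Named genes were the 6 highest and 6 lowest by CPM, the 4 widest and 4 narrowest in range, paralogs and the stalk protein; of the other lists only some of the leading genes are named, and further genes were named for known roles. Levels per coding length were planned, but lengths were not used here. Members and lists were chosen with earlier results of these data known.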

Additional observations from a re-analysis of the deposited data

How the results depend on the processing

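Of 49 alternative values, 42 lay near the reported value. Near means within 1 SD over the libraries or, for counts of genes, within 1.5 times. For the median deviations this SD was 0.13, about the size of the medians themselves in libraries 1 and 2. The library 1 median of 0.13 thus counted as near at 0.07 without replicate 2, and the library 2 median of −0.12 at −0.05 without replicate 1. Taking all members with a count could not change a median, so the 42 do not measure robustness. The count of genes that spread beyond genes of like abundance was 216. It was 81 to 121 with 1 library left out, where fewer degrees of freedom remain. The members' count was 0 under every alternative. Without replicate 2, 1 of 71 members, mRpL42, passed at an unadjusted p below 0.05, beside 425 of the 10588 genes tested. The members' sum was 3034 CPM, and 3240 CPM with totals that leave out the 10 most abundant genes, as a smaller total requires. Without mRpS5, an alternative chosen after the data were seen, the sum was 2414 CPM. The ratio of summed CPM of large- to small-subunit names was then 1.29 in place of 0.811. In alternatives chosen after the data were seen, 67 members were higher in library 1 than in library 3, 64 in library 3 than in library 2, and 29 of the 30 that overlap no other gene in library 1 than in library 2. The median deviation in library 3, −0.01, was 0.05 without replicate 1. TMM moved the median of all genes by at most 0.01 in size on the log2 scale. No paired analysis was possible because all libraries belong to a single group. The limit that a count of 0 sets for mRpL53 covers counting error only and leaves out reads listed as ambiguous. The use of strand, on which the counts of overlapping genes depend, is not known.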
